A study of Mus musculus with 384 samples.

Results

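The 9 genes Ctla4, Icos, Cd28, Pdcd1, Lag3, Havcr2, Tigit, Btla and Cd200r1 encode receptors of the CD28 family and other checkpoint receptors of T cells. They were taken by symbol from the deposited gene list, and all 9 were among its 50556 symbols and among the 30597 with a count in at least 1 well. Regulatory T (Treg) cells, CD4 T cells that express Foxp3 and hold other immune cells in check, had been sorted as single cells from the ear skin of mice given topical 5% imiquimod or vehicle and killed on day 3. Imiquimod is a Toll-like receptor agonist that inflames mouse skin. The design text counts 2 imiquimod and 2 vehicle mice but no label ties a plate to a mouse, and strain, sex, age and sorting gate are not given in the sources used here. Each treatment filled 2 plates of 87 single-cell wells, and each of the 4 plates also held 4 wells of 10 cells and 5 empty wells, which carry no treatment label.

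A well was kept as a cell when it held at least 500 detected genes and 10000 counts. This left 38 and 44 cells on imiquimod plates 1 and 2 and 62 and 58 cells on vehicle plates 1 and 2, which makes 82 imiquimod and 120 vehicle cells. Kept cells held between 47481 and 5946386 reads, with a median of 1101 genes. Median gene numbers were 975 and 1093 on the imiquimod plates and 1040.0 and 1503 on the vehicle plates. For thinning, each cell was drawn down to 200000 reads, and cells with fewer were left out. This left 35 and 44 cells on the imiquimod plates and 59 and 57 on the vehicle plates. Their medians were 528 and 515.5 genes on the imiquimod plates and 702 and 992 on the vehicle plates. A count of a CD3 chain (Cd3e, Cd3d or Cd3g) or of the T cell receptor symbols Tcra or Tcrb was present in 180 kept cells (89.1%). Foxp3 had a count in 75 (37.1%). By symbol, Tcra was present in 69.8% of kept cells, Tcrb in 69.3% and Cd3e in 23.8%. Among the 20 empty wells, Tcra had a count in 3, Tcrb in 1, and Cd3e and Foxp3 in 0. Of the cells with at least 1 of the 9 receptors, 95.5% had a CD3 or T cell receptor count, against 76.8% of the 69 cells without any. The marker list of T cells summed to between 2649 and 5643 CPM per plate (CPM being counts scaled to the total of the library). The Treg cell list summed to 6998 and 6667.5 CPM for imiquimod plates, against 10440 and 9189.5 for vehicle plates. Il2ra had a count in 26.3% and 34.1% of imiquimod cells, against 59.7% and 58.6% of vehicle cells. Foxp3 had 36.8% and 31.8% against 38.7% and 39.7%, and Cd4 10.5% and 18.2% against 25.8% and 34.5%. Ikzf2 overlapped, at 36.8% and 70.5% against 62.9% and 62.1%. Lower shares on both imiquimod plates held for 47.8% of 9043 genes in at least 5% of cells. Markers of other cells had counts as well, which per plate summed to between 106.8 and 966 CPM for macrophages and dendritic cells, 91.01 and 350.7 CPM for fibroblasts and 54.4 and 395.7 CPM for neutrophils. The sums ran from 1.43 to 568 CPM for keratinocytes, from 1.14 to 521 CPM for endothelial cells and from 4.50 to 272.6 CPM for mast cells and basophils. They ran from 2.17 to 26.5 CPM for B cells and up to 4.29 CPM for CD8 T and NK cells. Most of the endothelial sum on each plate came from Pecam1, which is also among the other inhibitory and costimulatory receptors listed below. The next highest endothelial value was that of Tie1 on vehicle plate 2, at 68.6 TMM-scaled CPM beside 338.9 for Pecam1. Without a count in any kept cell were 2 of 12 macrophage and dendritic cell genes, 6 of 8 mast cell and basophil genes, 2 of 7 CD8 T and NK cell genes, 1 of 5 neutrophil, 1 of 6 keratinocyte and 1 of 5 B cell genes, and none of the fibroblast and endothelial genes.

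T cells need a further signal beside that of the antigen receptor, which CD28 gives when it binds CD80 or CD86 on another cell. CTLA-4 binds the same ligands more tightly, strips them from the other cell and is a main tool of Treg cells, while ICOS binds its own ligand and supports effector Treg cells. PD-1 (Pdcd1), LAG-3, TIM-3 (Havcr2), TIGIT and BTLA restrain T cells through the ligands PD-L1 and PD-L2, MHC class II, galectin-9 among others, CD155 and HVEM. CD200R1 is better known from myeloid cells, which it restrains on binding CD200.

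Cd28, Ctla4 and Icos lie close together on chromosome 1 and are related in sequence, so their reads could in principle be mistaken for each other. The relation is clearest in the loop by which CTLA-4 and CD28 hold CD80 and CD86 and in the matching loop of ICOS. The coding bases of this loop are shown here in capitals, with 15 bases on each side in lower case, from the GENCODE M21 transcripts of the plus strand (GRCm38).
Ctla4: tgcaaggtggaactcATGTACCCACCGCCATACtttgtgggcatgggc
Cd28: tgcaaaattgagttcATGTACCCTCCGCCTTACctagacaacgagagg
Icos: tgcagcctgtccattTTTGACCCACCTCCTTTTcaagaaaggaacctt
Over the 18 bases of the loop, Ctla4 and Cd28 had 16 in common, while Icos had 11 in common with either. Over the whole window of 48 bases, Ctla4 shared 31 with Cd28 and 21 with Icos, and Cd28 shared 23 with Icos. No run of 50 bases in a transcript of Ctla4, Icos, Cd28, Pdcd1 or Btla occurred in a transcript of another gene. Such runs made up 0.874% of Lag3, 0.516% of Havcr2, 4.37% of Tigit and 1.16% of Cd200r1, whose partners include Cd200r4. No exon of a receptor gene overlapped an exon of another gene in that annotation.

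Icos, the costimulatory receptor, was the receptor seen in most cells, with a count in 79 cells (39.1%). Ctla4 followed with 58 cells (28.7%), Cd28 with 44 (21.8%) and Tigit with 37 (18.3%). The other genes were rare, with 18 cells for Havcr2 (8.91%), 17 for Btla (8.42%), 16 for Pdcd1 (7.92%), 15 for Cd200r1 (7.43%) and 2 for Lag3 (0.990%). None of the 9 had a count in any of the 20 wells without a cell, which allows a share of up to 15.0%, although 1 of these wells passed the filter for cells. The 95% Wilson intervals of neighbours in this order overlapped in every case except Cd200r1 and Lag3, which ran from 4.55% to 11.9% and from 0.272% to 3.54%. These intervals are taken over the cells of all 4 plates, so they cover counting error only and leave out the spread between plates.

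Counts were seldom marginal where a receptor was seen. At least 100 reads were present in 68 of the 79 Icos cells, 46 of the 58 Ctla4 cells, 36 of the 44 Cd28 cells and 28 of the 37 Tigit cells. In contrast, 5 of the 17 Btla cells and 3 of the 16 Pdcd1 cells rested on a single read, and only 9 and 5 of them reached 100 reads. Among cells with a count the median level was 1234.5 CPM for Icos, 1004 CPM for Ctla4, 1026 CPM for Cd28 and 585 CPM for Tigit. Median levels were 232.5 CPM for Havcr2, 164.2 CPM for Cd200r1, 96.7 CPM for Btla, 32.4 CPM for Pdcd1 and 23.9 CPM for Lag3. Levels spanned over 4 powers of 10 between cells for Ctla4, from 0.252 to 19668 CPM, and for Icos, from 0.654 to 18626 CPM.

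Per length Icos and Ctla4 again stood highest, while Pdcd1 and Cd200r1 stood above Havcr2 and Btla, unlike in the share of cells. Levels of the plate sums were divided by the exon length of each gene in GENCODE M21, as TMM-scaled CPM per kilobase. Averaged over the 4 plates, Icos stood at 434, Ctla4 at 366.7 and Tigit at 244.9 CPM per kilobase. Cd28 at 104.1 and Pdcd1 at 98.9 followed, then Cd200r1 at 57.6, Havcr2 at 28.1, Btla at 9.95 and Lag3 at 0.107 CPM per kilobase. The ranges of the 4 plates overlapped between all neighbours in this order. Lag3 had 0.428 CPM per kilobase on imiquimod plate 1 and no count on the other 3 plates, while Btla ranged from 0.00659 to 20.6 CPM per kilobase.

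**Figure D1:**
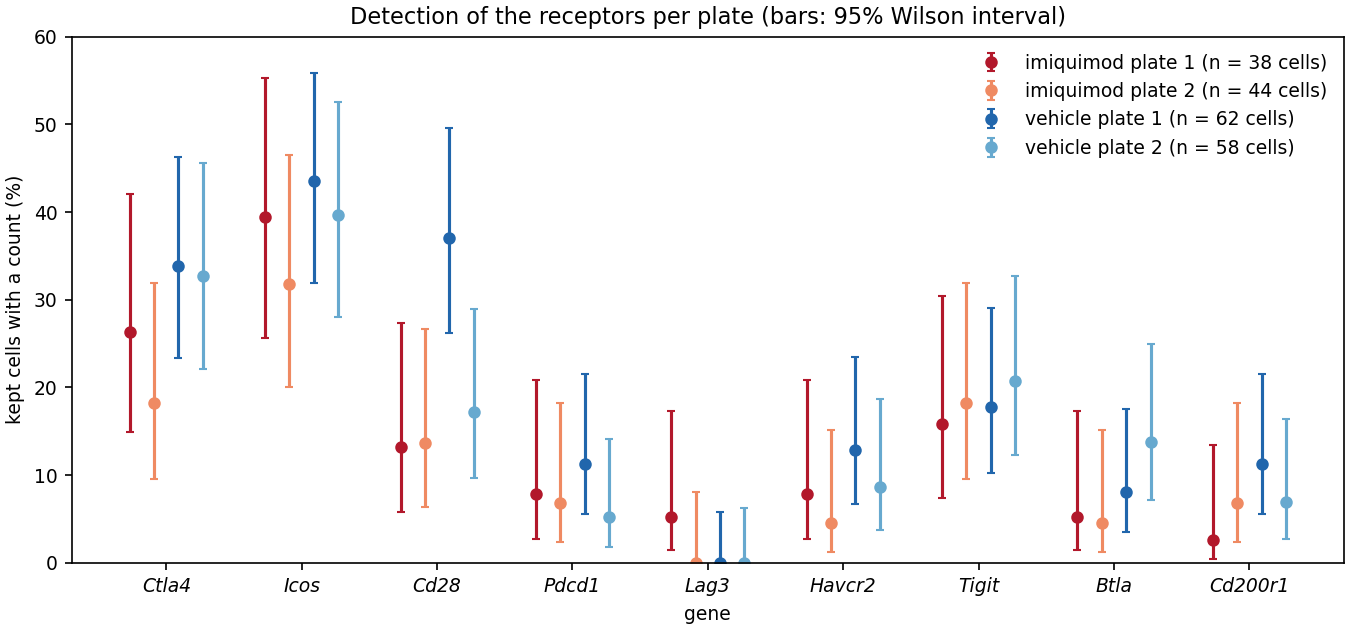
Share of kept cells with at least 1 count of each receptor (vertical axis, percent) on imiquimod plates 1 and 2 and vehicle plates 1 and 2. Points are plates and bars are 95% Wilson intervals; Icos is highest on each plate, between 31.8% and 43.5%, and Cd28 stands apart on vehicle plate 1 at 37.1%.

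The comparison of treatments asked whether the receptors differed between Treg cells of imiquimod and vehicle skin. For each plate the counts of its kept cells were added up, and the sums were tested with edgeR, 2 plates against 2. None of the 8 receptors with enough counts to be tested passed an adjusted p of 0.05, and neither did any other of the 14462 genes (0% called, with a smallest edgeR adjusted p of 0.420). At an unadjusted p under 0.05 there were 1669 genes, and DESeq2 called 3740. Leaving out imiquimod plate 1 brought the edgeR calls to 1.02% of 20984 genes, and leaving out imiquimod plate 2 to 3.91% of 20284 genes, with no receptor of the 9 among them. The 8 log2 fold changes, imiquimod over vehicle, had a median of 0.13, beside -0.26 over all genes tested, and were 4 positive and 4 negative. Under the size factors of DESeq2 the median over all genes was 0.11, so that fold changes close to these medians have no direction apart from the scaling.

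Ctla4 had 992 and 376.3 TMM-scaled CPM on imiquimod plates 1 and 2, against 1044 and 423 on vehicle plates 1 and 2. Its plates within a treatment differed more than the treatments did, and the log2 fold change was -0.10 ± 0.87 (SE; edgeR adjusted p = 0.986). Icos, the gene of highest level, had 2643 and 1168 CPM for the imiquimod plates, against 1455 and 688 for the vehicle plates. Imiquimod plate 2 lay under vehicle plate 1, and the log2 fold change was 0.83 ± 0.65 (SE; edgeR adjusted p = 0.676). Cd28 had 530.0 and 265.5 CPM for the imiquimod plates, against 789 and 225.8 for the vehicle plates. The treatments overlapped here too, with a log2 fold change of -0.35 ± 1.05 (SE; edgeR adjusted p = 0.949).

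Among the inhibitory receptors, Tigit had 67.2 and 340.2 CPM for the imiquimod plates, against 345.7 and 147.1 for the vehicle plates, with a log2 fold change of -0.27 ± 1.46 (SE; edgeR adjusted p = 0.974). The low imiquimod plate 1 held 6 Tigit cells with a median of 42.0 CPM, and imiquimod plate 2 held 8 with a median of 1728.5 CPM. Pdcd1 had 391 and 162.96 CPM for the imiquimod plates, against 209.3 and 0.213 for the vehicle plates (1.40 ± 2.06, SE; edgeR adjusted p = 0.864). These sums rested on very few cells: 1 cell carried 99.9% of the reads on imiquimod plate 1 and 1 cell 83.8% on vehicle plate 1, and the 3 Pdcd1 cells of vehicle plate 2 held 27 reads together. Havcr2 had 159.5 and 16.4 CPM for the imiquimod plates, against 83.2 and 47.2 for the vehicle plates (0.43 ± 2.36, SE; edgeR adjusted p = 0.975). A single cell carried 93.1% and 99.9% of its reads on the imiquimod plates and 69.9% and 37.3% on the vehicle plates.

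Cd200r1 had 0.171 and 245.4 CPM for the imiquimod plates, against 138.9 and 51.4 for the vehicle plates (0.37 ± 2.42, SE; edgeR adjusted p = 0.980). The first value is 8 reads of 1 cell, and in the second a single cell of 3 carried 89.2% of the reads. Without imiquimod plate 2 the log2 fold change was -9.02. Lag3 entered no test, since its only counts were 40 reads in 2 cells of imiquimod plate 1. The 0 of 44 cells on imiquimod plate 2 allow a share of up to 6.82%, and the 0 of 62 and 0 of 58 cells on the vehicle plates allow up to 4.84% and 5.17%.

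Btla, the receptor for HVEM, was the exception in that its treatments did not overlap. Its levels were 0.128 CPM on imiquimod plate 1 and 0.0214 CPM on imiquimod plate 2, against 67.1 CPM on the first vehicle plate and 62.2 CPM on the second. The imiquimod values are 6 and 2 reads, held by 2 cells on each plate and by none with 10 reads or more. On the vehicle plates 5 of 62 and 8 of 58 cells had a count, and 5 and 4 of them had 100 reads or more. The fitted log2 fold change was -9.75 ± 4.33 (SE), which depends on the prior count since the imiquimod sums are close to 0, and the edgeR adjusted p was 0.426. DESeq2 gave -9.20 with an adjusted p of 1.35e-05 on the same sums, and over all alternatives tried the adjusted p of Btla ranged from 1.35e-05 to 0.759. Levels on both imiquimod plates lay under those on both vehicle plates for 1 of the 8 receptors tested, Btla, and for 31.1% of all genes tested. The reverse held for 0 of the 8 and for 13.7% of all genes, and DESeq2 called 1 of the 8, Btla, and 19.2% of all genes as lower in imiquimod. The sums alone do not separate fewer cells with a transcript from less transcript per cell, but the single cells give both. Btla had a count in 4 of 82 imiquimod cells, at a median of 0.671 CPM among them. It had a count in 13 of 120 vehicle cells, at a median of 258.8 CPM. Of the marker lists of other cells, those of mast cells and basophils and of neutrophils lay on the same side in their sums. The mast cell and basophil list summed to 4.50 and 6.42 CPM for the imiquimod plates, against 272.6 and 115.6 CPM for the vehicle plates, nearly all of it from Kit, beside a little Cpa3 on the vehicle plates. The neutrophil list summed to 54.4 and 55.6 CPM for the imiquimod plates, against 120.5 and 395.7 CPM for the vehicle plates. Nearly all of the vehicle sums came from Mmp9, at 110.3 and 298.8 TMM-scaled CPM, against 0.0214 and 0 for the imiquimod plates. The neutrophil genes S100a8 and S100a9 went the other way. S100a8 had 15.7 and 13.8 TMM-scaled CPM for the imiquimod plates, against 0 and 5.33 for the vehicle plates. S100a9 had 62.6 and 45.2 against 0 and 5.00. A count of a mast cell or basophil marker was present in 4 of the 17 Btla cells (23.5%), beside 18.3% of all kept cells, and one of a neutrophil marker in 3 (17.6%), beside 10.9% of all kept cells. Markers of macrophages or dendritic cells had a count in 16 of the 17 Btla cells, beside 64.9% of all kept cells. They also had a count in 86.5% of Tigit and 83.3% of Havcr2 cells, but in 61.4% of Cd28 and 60.0% of Cd200r1 cells. Btla cells had a median of 2274 genes, against 1068 in cells without Btla. The part of these lists and of gene number in the Btla values was not tested.

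**Figure D2:**
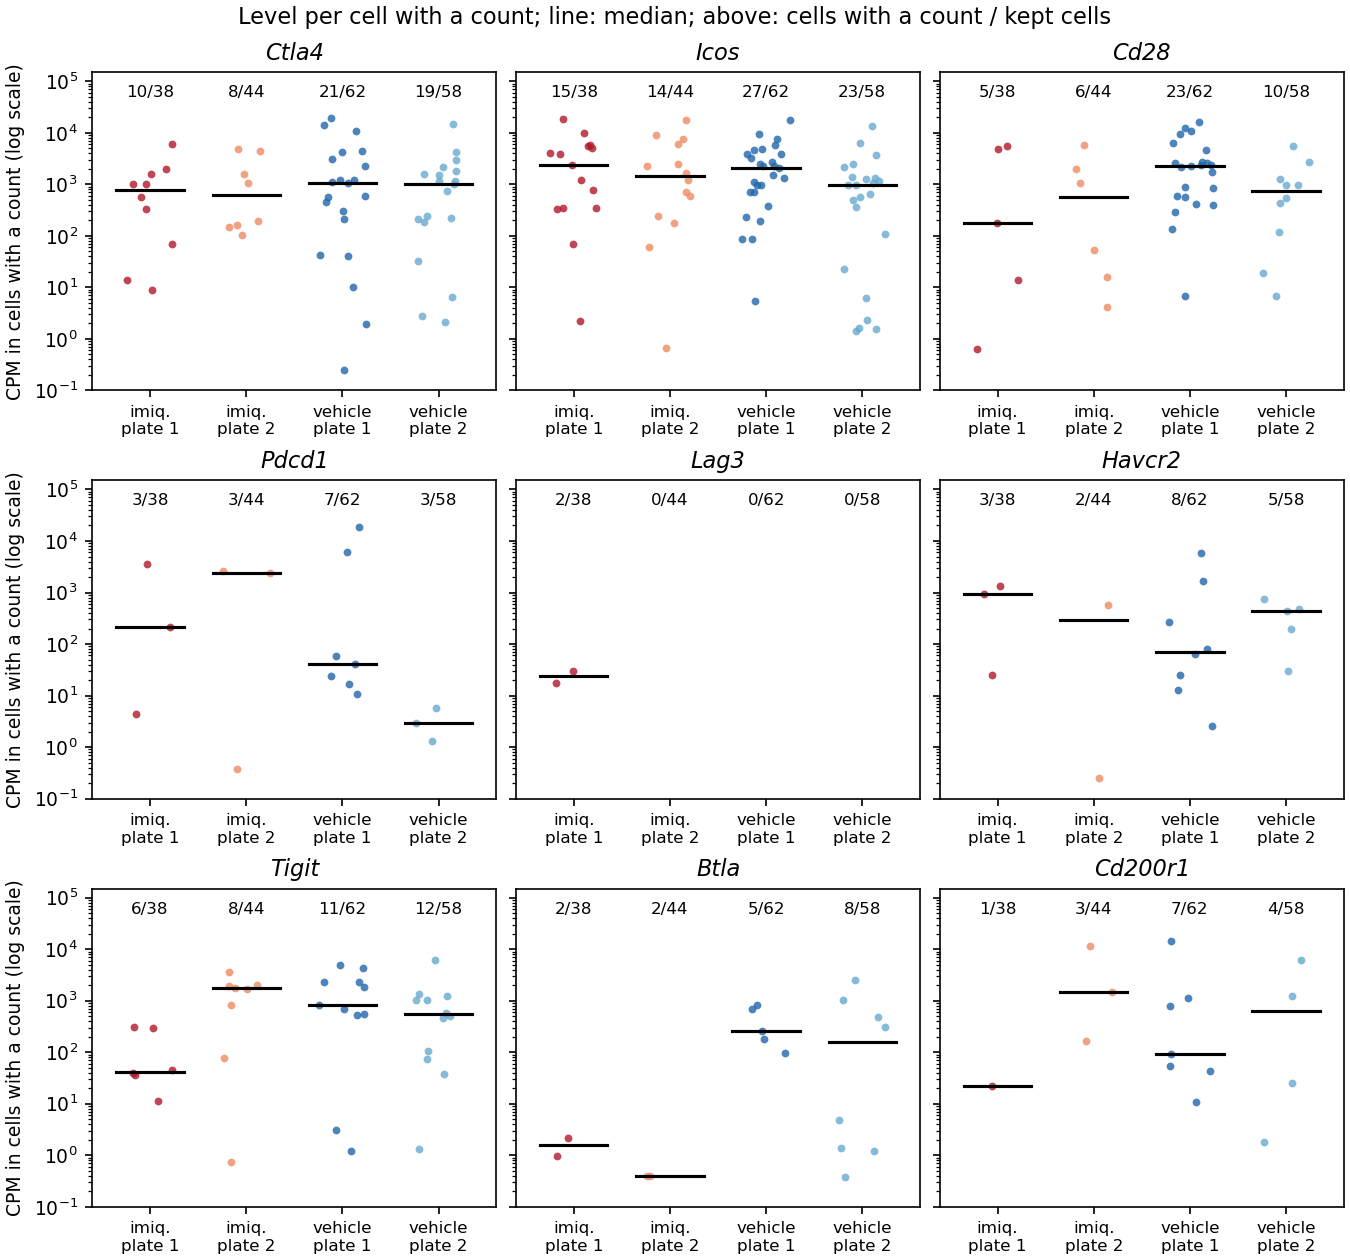
Level of each receptor in single cells (vertical axis, CPM on a log scale) by plate, with imiquimod plates left of vehicle plates. Each point is a kept cell with at least 1 count, lines are medians of these cells, and the numbers above give cells with a count over kept cells; the 4 Btla cells of the imiquimod plates lie at or under 2.19 CPM.

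The share of cells with a count was then compared over plates by exact two-sided permutation tests, which with 2 plates on each side cannot go below p = 0.333. Ctla4 was seen in 22.2% ± 5.75 of imiquimod cells and 33.3% ± 0.787 of vehicle cells (SD, n = 2 plates each; exact p = 0.333). Icos was seen in 35.6% ± 5.41 of imiquimod cells and 41.6% ± 2.75 of vehicle cells (exact permutation p = 0.333, n = 2 plates each). Both receptors thus lay lower on both imiquimod plates, although for Icos imiquimod plate 1, at 39.5%, and vehicle plate 2, at 39.7%, differed by less than the counting error. Cd28 was seen in 13.4% ± 0.338 of imiquimod cells and 27.2% ± 14.0 of vehicle cells (exact permutation p = 0.333, n = 2 plates each). The vehicle plates themselves stood far apart, at 37.1% and 17.2%.

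Havcr2, Btla and Cd200r1 were seen in 6.22%, 4.90% and 4.72% of imiquimod cells and in 10.8%, 10.9% and 9.09% of vehicle cells, as means of the plates (exact permutation p = 0.333 each, n = 2 plates each). Tigit, at 17.0% ± 1.69 of imiquimod cells and 19.2% ± 2.08 of vehicle cells, overlapped between treatments (exact permutation p = 0.667, n = 2 plates each). Pdcd1 overlapped as well, at 7.36% ± 0.761 of imiquimod cells and 8.23% ± 4.33 of vehicle cells (exact permutation p = 1, n = 2 plates each). Of the 8 receptors present in at least 5% of kept cells, 6 lay lower on both imiquimod plates than on both vehicle plates and 0 lay higher. The same held for 47.8% and 5.13% of the 9043 genes present in at least 5% of kept cells. Mean gene numbers per cell were 1099.6 and 1338 on the imiquimod plates, against 1670.5 and 1930.7 on the vehicle plates. The median gene numbers overlapped between treatments, at 975 and 1093 against 1040 and 1503. After thinning, the receptors lower on both imiquimod plates were the 4 genes Ctla4, Cd28, Havcr2 and Btla, beside 47.7% of all these genes. What part the gene number of the cells had in these shares was not tested.

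Cells mostly carried few receptors at a time. No receptor was seen in 69 cells, 1 in 53, 2 in 36, 3 in 25 and 4 in 12 cells, while 5 cells had 5, 1 cell had 6 and 1 cell had 7. The mean was 1.24 and 1.05 receptors per cell on the imiquimod plates and 1.76 and 1.45 on the vehicle plates (exact permutation p = 0.333, n = 2 plates each). Cells with 2 or more receptors made up 28.9% and 31.8% on the imiquimod plates and 53.2% and 37.9% on the vehicle plates (exact permutation p = 0.333, n = 2 plates each). Per 1000 genes detected the plates overlapped, with 1.125 and 0.781 receptors on the imiquimod plates and 1.05 and 0.750 on the vehicle plates.

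The number of receptors went with the number of genes detected in the cell. Across the cells of a plate Spearman's rho between them was 0.50 and 0.58 on the imiquimod plates (38 and 44 cells) and 0.60 and 0.57 on the vehicle plates (62 and 58 cells), where both measures come from the same library and share its depth. Cells above the median gene number of their plate had 2.11 receptors on average, against 0.723 in the remaining cells. The cell with most receptors lay on vehicle plate 1 and had 3363 genes and 7 receptors, lacking only Pdcd1 and Lag3. Its levels ran from 183.97 CPM of Btla to 2273 CPM of Tigit, with 1075 CPM of Ctla4 and 1303 CPM of Icos. The cell with 6 receptors lay on vehicle plate 2 and had 8033 genes, the highest number of any kept cell.

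**Figure D3:**
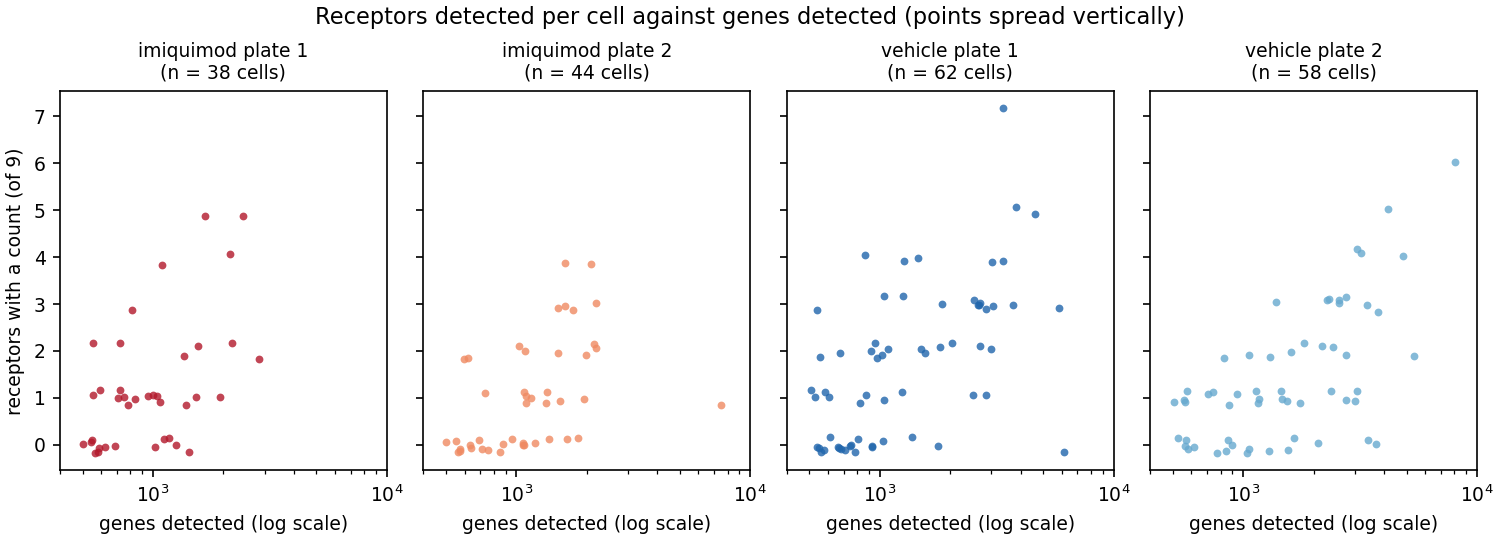
Number of the 9 receptors with a count (vertical axis) against the number of genes detected (horizontal axis, log scale) in each kept cell, by plate, imiquimod first. Points are cells, spread slightly in the vertical direction; cells with 4 or more receptors are found mostly to the right, and the cells with 7 and 6 receptors have 3363 and 8033 genes.

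Ctla4 and Icos were the pair seen together most often, in 40 cells. Icos was present in 69.0% of Ctla4 cells, against 27.1% of cells without Ctla4. The share of Ctla4 cells with Icos was 60.0% and 62.5% on the imiquimod plates and 66.7% and 78.9% on the vehicle plates. Icos was thus the more frequent in Ctla4 cells on each plate, with 32.1% and 25.0% of the cells without Ctla4 on the imiquimod plates and 31.7% and 20.5% on the vehicle plates. If both were spread over the cells of a plate independently, 23.2 cells with both would result, and 29.3 if this is taken separately for cells above and under the median gene number. In these 40 cells Icos was the higher in 29, with a median log2 ratio of Icos over Ctla4 of 1.07, and a range of the ratio from -10.04 to 14.18.

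Icos or Ctla4 was part of each of the 5 pairs that followed in number of cells. Icos was seen with Cd28 in 28 cells, with Tigit in 25 and with Havcr2 in 12. Ctla4 was seen with Cd28 and with Tigit in 20 cells each and with Havcr2 in 10. Pdcd1 was seen with Ctla4 in 8 cells and with Icos in 7. Havcr2 and Tigit, both inhibitory, were seen together in 10 cells, so that 55.6% of Havcr2 cells had Tigit, against 14.7% of cells without Havcr2. The product of their shares within plates came to 3.29 cells, and to 5.09 with the split by gene number. Cd28 and Tigit, in contrast, met in 9 cells beside a product of 8.03.

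Of the 36 possible pairs 30 were seen in at least 1 cell, and 27 were more frequent than the product of the shares within plates. With the split by gene number this number was 24. How many pairs of other genes exceed such a product was not determined, so these counts cannot show a trait particular to the receptors. The 6 pairs not seen were 5 that involve Lag3 and the pair of Pdcd1 and Btla, where the product was 1.27 cells. The cells with a receptor showed 54 different combinations. The most frequent were Icos alone in 15 cells, Cd28 alone in 11, Ctla4 with Icos in 9 and Ctla4 with Icos and Cd28 in 8. At least 1 of Ctla4, Icos and Cd28 was present in 110 cells and all 3 in 17, and 23 cells had only other receptors of the 9.

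**Figure D4:**
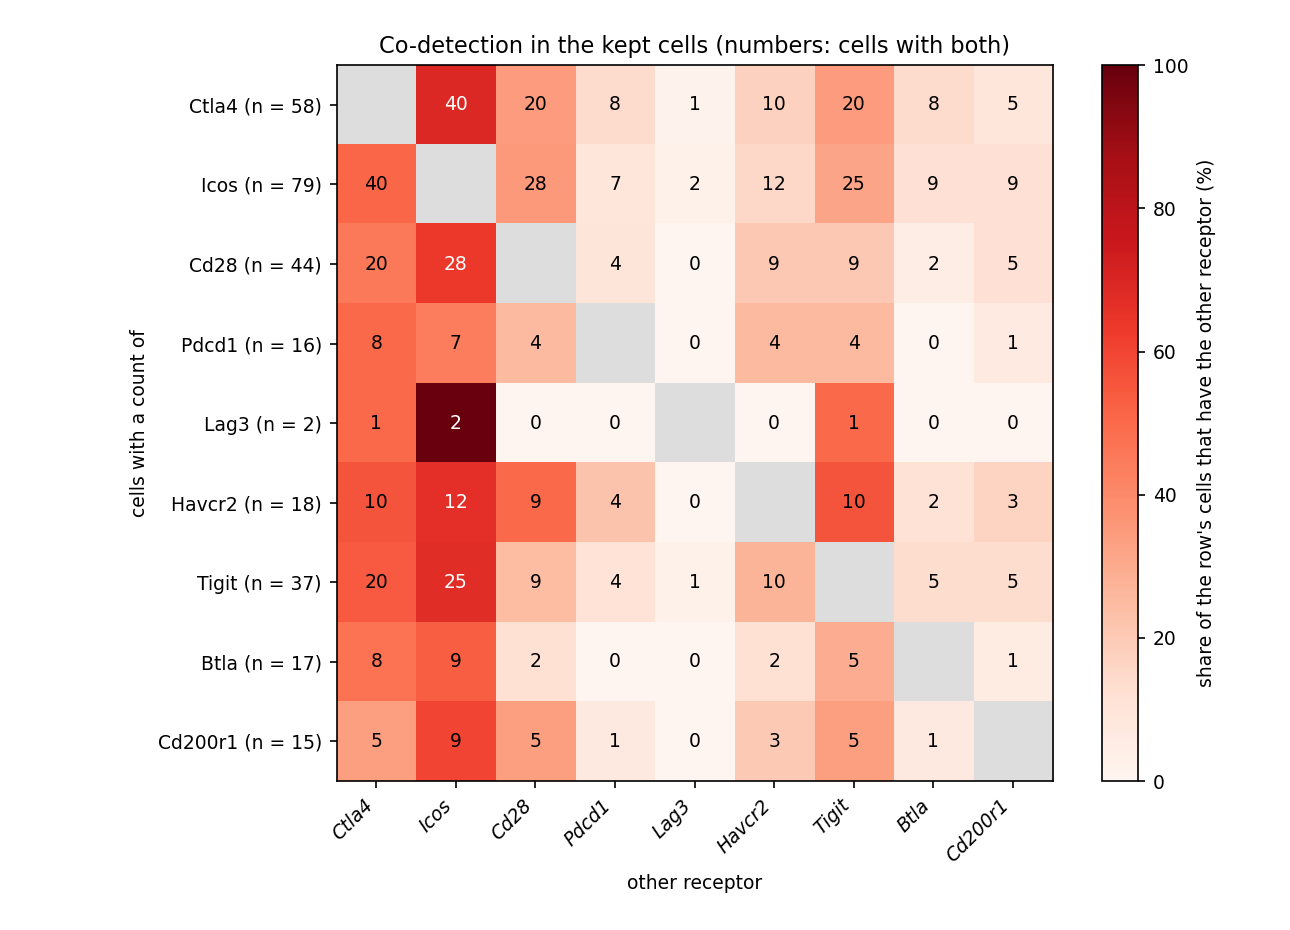
Co-detection of receptors in the kept cells. Each row takes the cells with a count of the receptor at the left (number in brackets), colours give the share of them that also had the receptor in the column (percent), and numbers are cells with both; the pair of Ctla4 and Icos is the largest with 40 cells, and Lag3 rests on 2 cells.

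Several of the receptors were seen in a larger share of the cells with a count of the lineage factor Foxp3. Ctla4 was present in 49.3% of the 75 Foxp3 cells, against 16.5% of the cells without a Foxp3 count. On the imiquimod plates these shares were 42.9% and 28.6% of Foxp3 cells, against 16.7% and 13.3% of the others. On the vehicle plates they were 58.3% and 56.5% of Foxp3 cells, against 18.4% and 17.1% of the others. The difference in Ctla4 thus had the same direction on all 4 plates. Foxp3 cells had a median of 1993 genes, against 945 in the others. Among cells above the median gene number of their plate, Ctla4 was present in 61.8% of 55 Foxp3 cells and 21.7% of 46 others, and among the remaining cells in 15.0% of 20 Foxp3 cells and 13.6% of 81 others. Icos was present in 58.7% of Foxp3 cells and 27.6% of the others, Tigit in 30.7% of Foxp3 cells and 11.0% of the others, and Havcr2 in 16.0% of Foxp3 cells and 4.72% of the others. Cd200r1 was present in 8.00% of Foxp3 cells and 7.09% of the others, and Btla in 10.7% of Foxp3 cells and 7.09% of the others. Cd28 was present in 29.3% of Foxp3 cells and 17.3% of the others, but on imiquimod plate 1 in 7.14% of Foxp3 cells and 16.7% of the others. The direction did not hold for every receptor in the cells at or under the median gene number. There Icos was present in 25.0% of Foxp3 cells and 16.0% of the others, while Cd28 was present in 10.0% of Foxp3 cells and 19.8% of the others. Tigit and Cd200r1 were each present in 5.00% of these Foxp3 cells and 6.17% of the others, and Btla in 0 of 20 Foxp3 cells and 4.94% of the others.

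For the 3 receptors present in at least 20% of kept cells, the genes most alike in detection were sought among 1280 genes of at least that frequency. Likeness was the correlation of detection over cells (phi), averaged over the 4 plates. Ctla4 was most like the muscle-type enolase Eno3 (0.46), the membrane linker moesin Msn (0.46) and the actin-binding profilin Pfn1 (0.44). Its phi with Icos was 0.25 and 0.31 on the imiquimod plates and 0.33 and 0.56 on the vehicle plates. Icos was most like the translation factor Eif1 (0.47), Serinc3 (0.44) and Tmsb10, a thymosin that binds actin monomers (0.43). Cd28 was most like the zinc finger factor Klf6 (0.31), the clock gene Arntl (0.29) and Serinc3 (0.29). These correlations run over 38 to 62 cells per plate that differ in depth and gene number, which all the genes share, and are given without a test.

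The other genes of the pathway were taken from 4 lists, and none of their members passed edgeR's test in either direction. Of the 16 other inhibitory and costimulatory receptors tested, 8 had positive and 8 negative fold changes, with a median log2 fold change of 0.05. Those of highest level belong to the tumour necrosis factor receptor family. Tnfrsf4, which encodes OX40, had 3684 and 944 CPM for the imiquimod plates, against 797 and 669 for the vehicle plates (1.66 ± 0.69, SE; edgeR adjusted p = 0.420). Its treatments did not overlap, although it was present in 25.6% of imiquimod and 30.8% of vehicle cells. Of the 16 receptors, 3 lay lower and 2 higher on both imiquimod plates, beside 31.1% and 13.7% of all genes tested. Tnfrsf9 (4-1BB) had 0.88 ± 0.68 and Tnfrsf1b, the second receptor for tumour necrosis factor, 0.64 ± 0.66 as log2 fold changes with SE.

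Of 15 ligands of the receptors 12 were tested, with 6 positive and 6 negative fold changes and a median log2 fold change of -0.07. Lgals3, which encodes galectin-3, had 1499.5 and 239.2 CPM for the imiquimod plates, against 151.03 and 158.01 for the vehicle plates (2.49 ± 1.10, SE; edgeR adjusted p = 0.425). Hmgb1, a ligand given for TIM-3, was present in 23.8% of kept cells (1.18 ± 1.40), and Pdcd1lg2, which encodes PD-L2, in 12.9% (0.58 ± 1.70). The CD28 and CTLA-4 ligands Cd80 and Cd86 had a count in 12 and 17 cells, and Icosl, the ligand of ICOS, in 4.

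The signalling list held kinases, adaptors and phosphatases next to these receptors, and 25 of its genes were tested with a median log2 fold change of 0.36. Lck, the kinase that phosphorylates CD28 and the antigen receptor, had 3161 and 505 CPM for the imiquimod plates, against 1093 and 732 for the vehicle plates (1.01 ± 0.78, SE; edgeR adjusted p = 0.674). Inpp5d, the phosphatase SHIP-1, had 1.25 ± 0.75 and Lcp2, the adaptor SLP-76, 0.44 ± 0.78. The 19 transcription factors tested had a median of 0.38. Ikzf2, which encodes Helios, had 1856 and 2797 CPM for the imiquimod plates, against 4036 and 3259 for the vehicle plates, and so did not overlap (-0.65 ± 0.43, SE; edgeR adjusted p = 0.589). Tox, a factor of lasting T cell stimulation, did not overlap either, with 1754 and 1661.5 CPM for the imiquimod plates, against 1039 and 951 for the vehicle plates (0.78 ± 0.59, SE; edgeR adjusted p = 0.661). Of the 19 factors, 2 lay lower and 6 higher on both imiquimod plates, beside 31.1% and 13.7% of all genes tested. Nr4a1, induced by antigen receptor signals, had 0.38 ± 0.62.

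Each well of 10 cells pools several cells, so a receptor with a count in only some of them can be seen in the well. These 16 wells had a median of 6623.5 genes and between 4 and 8 of the 9 receptors, with a median of 6.5. Ctla4 and Icos were present in all 16 wells, together with medians of 549 CPM of Ctla4 and 1454 CPM of Icos. Tigit was present in 15 wells, Cd28 in 14, Cd200r1 in 11, Havcr2 in 10 and Pdcd1 in 9. Btla was present in 5 wells and Lag3 in 4. As in single cells, Icos, Ctla4, Tigit and Cd28 were on top and Lag3 was last. Those on top were present in 14 to 16 of the 16 wells, which leaves little room for an order among them. The order of the rarer receptors differed. Cd200r1 came before Havcr2, Pdcd1 and Btla in the wells, but after them in single cells.

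These numbers were set beside those that 10 independent cells at the share of the kept cells of the same plate would give. Ctla4 was present in 16 wells beside 15.1 from the shares, Icos in 16 beside 15.8, Tigit in 15 beside 13.8 and Cd28 in 14 beside 13.5. Btla was present in 5 wells (31.3%, 95% Wilson interval 14.2% to 55.6%) beside 8.53 from the shares. Lag3 was present in 4 wells (25.0%, 95% Wilson interval 10.2% to 49.5%) beside 1.67 from the shares. Taken over every single-cell well in place of the kept cells, the shares gave 5.92 wells for Btla and 0.830 wells for Lag3. The interval of the wells takes in both numbers for Btla, while for Lag3 it takes in the number from kept cells and lies above that from every well. In the numbering of the plates from 1 to 4, plates 1 and 2 are those called vehicle plates 1 and 2 above. Plates 3 and 4 are those called imiquimod plates 1 and 2. The Lag3 wells were 1 on plate 1, 1 on plate 3 and 2 on plate 4, and on plates 1 and 4 no kept cell had a count. The Lag3 wells reached 319.4 CPM, while the highest single cell had 30.4 CPM. Cd200r1 was present in 11 wells beside 7.80 from the shares. On the plates numbered 1 to 4 in the labels, Btla was present in 3, 1, 0 and 1 of 4 wells each.

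Levels in these wells were close to those of the summed single cells for the frequent receptors. Icos averaged 1498 ± 829 CPM over the 16 wells (SD), beside 1301 CPM in the sum of all kept cells. Ctla4 averaged 702 ± 621 CPM beside 669 CPM, Cd28 421 ± 409.6 CPM beside 438 CPM and Tigit 331.1 ± 373.5 CPM beside 246.1 CPM. The wells varied widely even with 10 cells, for Ctla4 from 11.3 to 2028 CPM. Btla averaged 14.7 ± 32.7 CPM beside 40.8 CPM and Lag3 30.7 ± 82.3 CPM beside 0.112 CPM.

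**Figure D5:**
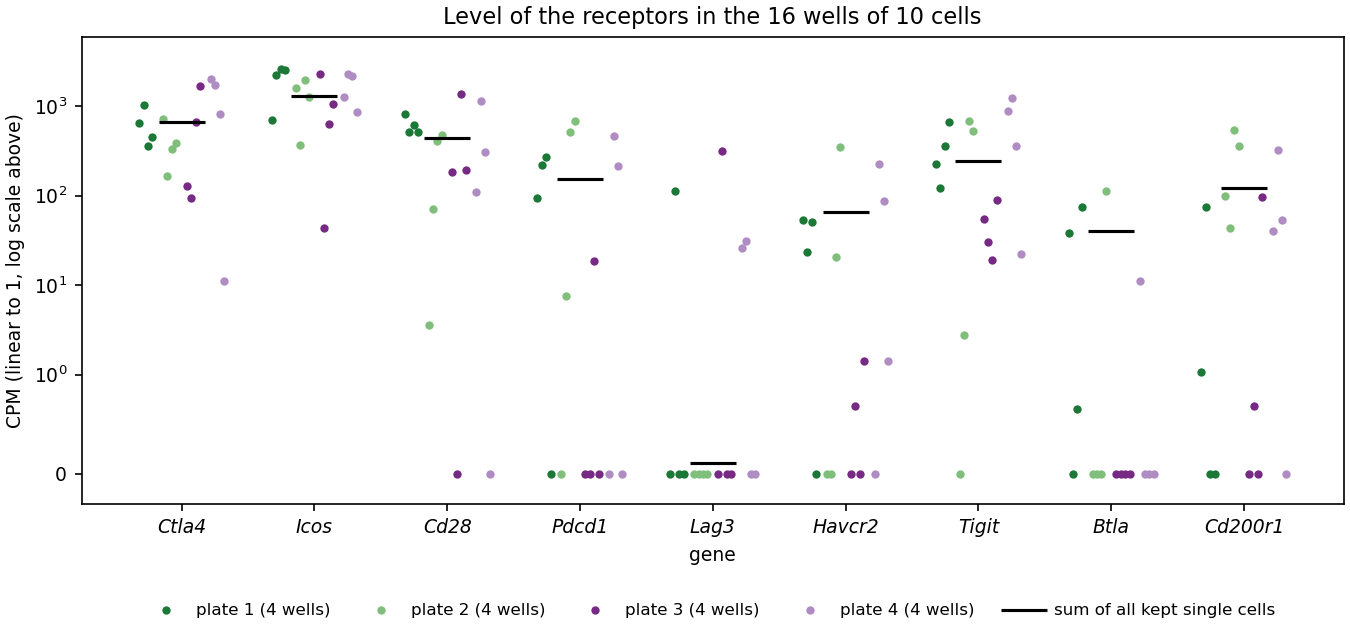
Level of each receptor in the 16 wells of 10 cells (vertical axis, CPM, linear up to 1 and logarithmic above). Points are wells, coloured by plate number as the wells carry no treatment label, and black lines give the CPM of the sum of all kept single cells; Ctla4 and Icos are above 0 in all wells, and Lag3 in 4.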

How the data were processed

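Treg cells were profiled by RNA sequencing in plates, as single cells, as wells of 10 cells and beside empty wells. Per the labels' protocols, cDNA was primed with oligo dT, amplified for 24 cycles and given another 12 cycles after tagmentation, and no molecular identifiers are mentioned. Per the submitters' processing notes, Trimmomatic 0.39, STAR 2.7.3a, SAMtools 1.12 and mm39 were used. How reads were counted, with or without strand, and on which annotation is not given in the sources used here. The deposited values are raw read counts per gene symbol in 384 wells.

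Wells were grouped by the labelled treatment, and the plate was the replicate, so p-values measure the spread between plates, which may be technical. Single-cell wells with at least 500 genes and 10000 counts were kept, 202 in all, and no doublet caller was run. Counts summed over the kept cells of a plate were tested with edgeR 4.0.16 (quasi-likelihood, default expression filter, TMM, Benjamini-Hochberg over 14462 genes, threshold 0.05), after checking the script on simulated data. Plate sums were 67319087 and 99183184 counts for imiquimod and 90448592 and 99396458 for vehicle. Detection meant at least 1 count. Shares were compared by exact two-sided permutation over plates (scipy 1.17.1), with 95% Wilson intervals over the cells of a plate or of all plates. These intervals and limits cover counting error only, and PCR copies count as reads. A limit for a share of 0 is 3 counts over the number of wells.

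The receptors, lists and tests were chosen with earlier results of these data known. All 9 receptors were named. From each pathway list the genes past the test were named or, as none passed, the 3 of highest mean level, and for receptors in at least 20% of cells the 3 genes of most similar detection, leaving out ribosomal, mitochondrial and uncharacterised genes. Counts of the ligands Cd80, Cd86 and Icosl were added after their values were seen, as were the splits by Foxp3. Alternatives were DESeq2 1.42.0 and its size factors, limma 3.58.1 on log2(CPM + 1) averaged over cells, testing without the expression filter, stricter and looser filters on cells and counts, thinning to 200000 counts, removal of the highest cell of each gene and plate, and leaving out each plate. Exon lengths and sequences came from GENCODE M21 of GRCm38, from which no coordinates are given since the files use mm39.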

Additional observations from a re-analysis of the deposited data

Results flagged for a closer look

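Receptor reads were also present outside the kept cells. Of the single-cell wells under the filter for cells, 32 had a count of at least 1 receptor (21.9% of these wells), while 0 of the 20 wells without a cell had one. Icos was present in 13 of these wells, Ctla4 in 6, Pdcd1 in 4, and Cd28, Tigit and Cd200r1 in 3 each. Lag3, Havcr2 and Btla had no count in any of them. What flagged them is a signal in wells that entered no comparison, above the level of the wells without a cell. Every single-cell well with a count was used as an alternative.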

How the results depend on the processing

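No paired analysis was possible because plates are nested in treatments and well numbers only name wells, so no replicate block can be fitted. No receptor passed edgeR's or limma's threshold under any alternative run, and DESeq2 called 1 of the 8 (Btla, -9.20). Over all genes edgeR called 0, DESeq2 3740, edgeR without the expression filter 9, and leaving out 1 plate between 0 and 794, where the lone plate is assumed to vary like the other group. The mean number of receptors per cell (imiquimod minus vehicle, -0.46) stayed negative, between -0.62 and -0.31, and so did the share with 2 or more receptors (-15.2 percentage points), between -22.8 and -7.55. The share of Ctla4 cells with Icos (69.0%) stayed between 61.5% and 75.0%.

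The log2 fold change of Btla was negative in all 13 alternatives (-11.38 to -0.67), that of Pdcd1 changed sign in 1, and those of the other 6 receptors tested in 2 or more. In all 25 fold changes and 3 differences in share changed sign, and the cause was not tested. Ctla4 (log2 fold change -0.10) became 0.46 with DESeq2 and with its size factors in edgeR and 0.44 in cells of at least 1000 genes, and Cd28 (-0.35) became 0.17 with DESeq2 and with its size factors. Icos (0.83) became -0.30 with limma and -0.0128 in cells of at least 1000 genes. Pdcd1 (1.40) became -0.92 after thinning. Havcr2 (0.43) became -0.34 with limma, -1.58 without the highest cell per plate and -0.75 after thinning. Cd200r1 (0.37) became -0.28 with limma, -1.36 without the highest cell, -4.61 in cells of at least 1000 genes, -2.71 in cells with a T cell receptor or CD3 count and -0.44 after thinning. Leaving out a plate gave ranges of -0.87 to 0.62 for Ctla4, -0.99 to 0.74 for Cd28, -1.90 to 1.39 for Havcr2, -1.78 to 0.56 for Tigit and -9.02 to 1.46 for Cd200r1. The difference in the share of Pdcd1 cells (-0.875 percentage points) became 0.00998 at 10 counts or more and ran from -3.93 to 2.18 without a plate, and that of Tigit (-2.23) became 5.37 in cells of at least 1000 genes. The levels of the rarer receptors rest on few cells, as 1 cell held most reads of Pdcd1, Havcr2 or Cd200r1 on several plates.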
